A study of Sus scrofa with 15 samples.

Results

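PRKAR2A (ENSSSCG00000011363) and PPP1R1A (ENSSSCG00000000298) are the 2 genes described here, out of 16660 pig genes with counts. They were selected on the measured values of these same libraries. PRKAR2A was chosen by its lower level in Tg1 than in NC, and PPP1R1A by its lower level in Tg2 than in NC. The genes ranked were named genes lower than NC with an adjusted p at or below 0.05, a log2 fold change of at least 0.26 in size and no overlap of libraries. Among these, PRKAR2A stood 2nd of 96 in Tg1 by adjusted p-value and PPP1R1A stood 5th of 362 in Tg2. Just inside and just outside these places stood DMXL1 (log2 fold change -0.38) and LRP6 (-0.39) around PRKAR2A (-0.36), and TSPAN9 (-0.33) and CMPK1 (-0.34) around PPP1R1A (-0.30). These 2 comparisons are therefore given as descriptions and without a test. Both members passed the filter of a mean of 2 CPM, counts scaled to a common library size, over all libraries, as did 11553 genes in all.

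LLC-PK1, a pig cell line with the character of the renal proximal tubule, was transfected with 5 plasmids, and mRNA of 3 libraries per plasmid was sequenced. NC was the plasmid backbone with no PKD2 gene. WT carried the wild-type human PKD2 coding sequence, Tg1 carried PKD2 with c.A1532T (p.D511V), Tg2 carried PKD2 with c.T1967G (p.L656W), and Tg3 carried PKD2 with c.C2224T (p.R742X), a stop codon. All plasmids, NC included, had the same floxP-neo-pH11 backbone with a CAG promoter, the strong general promoter that drove PKD2, and a FLAG tag was joined to the PKD2 constructs. The endogenous pig genes were left in place, so each construct was added to cells that had their own copies, and expression was transient in 1 line, in which some cells may have taken up no plasmid. The labels number the replicates without saying how they were grown, so the p-values measure the spread between these wells, which may be technical. In such bulk samples, fewer cells making a transcript and less RNA per cell cannot be told apart.

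Cyclic AMP (cAMP) is made by adenylyl cyclases downstream of hormone receptors, such as the vasopressin V2 receptor, and is broken down by phosphodiesterases. It acts largely through protein kinase A (PKA), in which a pair of regulatory subunits hold the catalytic subunits inactive until cAMP binds. PRKAR2A encodes the type II alpha regulatory subunit, which A-kinase anchoring proteins tether to particular places in the cell. PPP1R1A encodes inhibitor-1, which PKA phosphorylates and which then blocks protein phosphatase 1 (PP1), so that substrates of PKA stay phosphorylated for longer. In polycystic kidney disease, cAMP is known as a driver of fluid secretion and proliferation in cyst epithelium.

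The libraries held from 20216200 to 26132196 counts. The counts of the 2 members lay between 1236 and 1998 per library, for which counting error alone is 2.24 to 2.84%. Of 14 proximal tubule markers, 12 were in the table and 11 had a mean of 2 CPM or more, among them LRP2 at 261 CPM, AQP1 at 263 CPM and ANPEP at 135 CPM. Of 6 distal nephron and collecting duct markers in the table, 3 reached 2 CPM, namely SLC12A1 (12.2 CPM), SCNN1G (9.31) and AQP3 (9.23). Of 6 fibroblast markers, only COL1A2 did so, at 923 CPM, and PDGFRA, PDGFRB and LUM were under 0.1 CPM. Of 5 leukocyte markers, CD3E (20.5 CPM) and CD14 (8.14) reached 2 CPM while PTPRC was under 0.1 CPM, and of 4 endothelial markers none did, with CDH5 and KDR under 0.1 CPM. The first principal component of log2 CPM held 54.3% of the variance. Its scores ran from -16.8 to -0.923 in NC, -23.7 to 6.61 in WT, -7.14 to 5.77 in Tg1, 2.52 to 21.1 in Tg2 and -0.0236 to 12.7 in Tg3, with WT replicate 2 apart from the other WT libraries at 6.61. The second component held 7.85% of the variance, and on it the Tg1 libraries stood apart at 4.29 to 11.9, with every other library between -6.03 and 2.70. The proximal tubule markers summed to 1100 to 1270 CPM in NC, 1020 to 1290 in WT, 970 to 1130 in Tg1, 821 to 1070 in Tg2 and 878 to 1020 in Tg3. The mitochondrial share of counts was 3.16 to 3.42% in NC, 2.87 to 3.25% in WT, 2.85 to 3.15% in Tg1, 2.69 to 3.04% in Tg2 and 2.66 to 2.96% in Tg3. The part that these axes, the marker levels and the mitochondrial share have in the results was not tested. Values from a fit with the first component as a covariate are given beside the members and the listed genes that were called. That component was computed from these same libraries, and NC overlapped on it with neither Tg2 nor Tg3. The fit therefore cannot tell plasmid from component there, and nothing is concluded from a changed value or call.

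PRKAR2A was lowest in Tg1. Its TMM-normalized CPM was 79.2, 75.2 and 77.0 in NC replicates 1 to 3, and 58.0, 61.5 and 60.2 in Tg1. All 3 Tg1 libraries lay below every library of the other 4 plasmids. The level was 64.6, 67.7 and 70.1 CPM in Tg2. The Tg2 libraries formed a second group below NC, WT and Tg3 and above Tg1, without overlap. WT libraries were at 75.6, 71.1 and 78.1 CPM and Tg3 libraries at 74.1, 72.7 and 74.3 CPM. These overlapped with each other, and WT overlapped with NC, while the highest Tg3 library lay just below the lowest NC library. In the plot of CPM by plasmid, PRKAR2A is thus lowest at Tg1 and next lowest at Tg2.

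**Figure D1:**
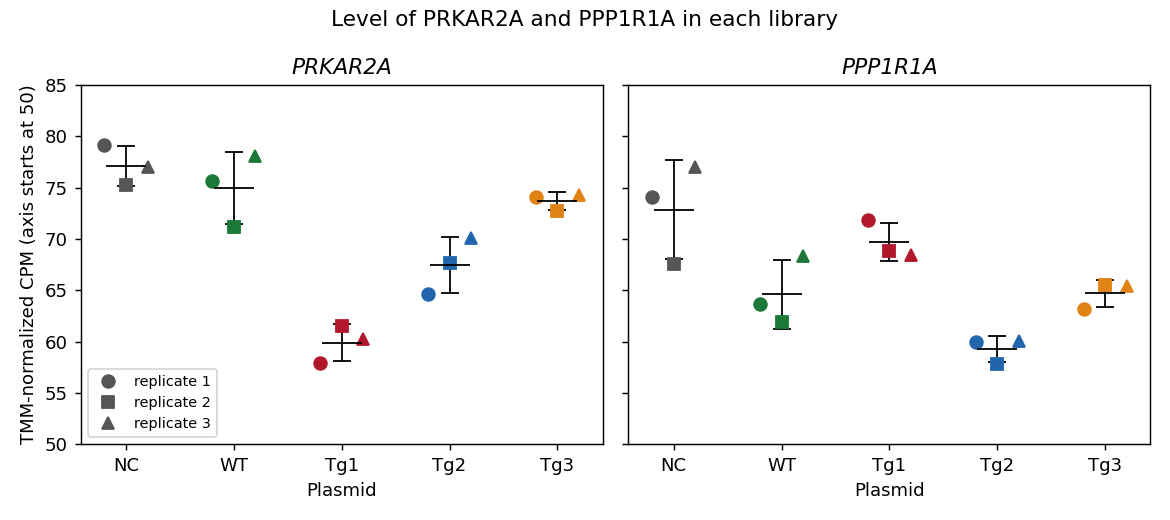
TMM-normalized CPM of PRKAR2A (left) and PPP1R1A (right) in each of the 15 libraries by plasmid, on an axis that starts at 50; symbols mark the replicate number and the horizontal lines and bars give the mean and SD (n = 3). PRKAR2A is lowest in the 3 Tg1 libraries (58.0 to 61.5 CPM) and PPP1R1A in the 3 Tg2 libraries (57.8 to 60.0 CPM).

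Ordered by mean level, PRKAR2A ran from NC (77.1 CPM) through WT (75.0), Tg3 (73.7) and Tg2 (67.5) to Tg1 (59.9). As a description of the comparison that chose the gene, the Tg1 level differed from NC by a log2 fold change of -0.36 (standard error 0.04, 95% interval -0.46 to -0.27), a change of -22.3%. Against NC, 1.01% of all tested genes were called lower in Tg1, where a call needs both an adjusted p at or below 0.05 and a log2 fold change of at least 0.26 in size, and 14.8% had all 3 Tg1 libraries below all 3 NC libraries. Nothing is read from these shares for PRKAR2A, since the comparison chose it. Leaving out any 1 of the 15 libraries gave values from -0.38 to -0.34, and the first principal component as a covariate gave -0.33.

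The other comparisons of PRKAR2A with NC use the same NC libraries as the comparison that chose it, so a high NC level by chance would enter them too. In Tg2, the log2 fold change was -0.19 (standard error 0.04, 95% interval -0.29 to -0.10; edgeR's quasi-likelihood test, adjusted p = 0.021). It passed the p-value threshold but not the fold threshold, and so was not called. Of all tested genes, 6.4% were lower in Tg2 with an adjusted p-value at or under the threshold, and 18% had all 3 Tg2 libraries below all 3 NC libraries, as PRKAR2A did. With the first principal component as a covariate, its log2 fold change in Tg2 was -0.12 with an adjusted p = 0.254 from edgeR. That was the highest value over the 23 alternatives other than glmTreat, which gave 0.00611 to 0.254. The test by glmTreat, which is against the fold threshold, did not call the gene. In Tg3 the log2 fold change was -0.07 (95% interval -0.16 to 0.03; edgeR adjusted p = 0.419), and all Tg3 libraries lay below NC, as was the case for 13.9% of genes. In WT it was -0.04 (95% interval -0.13 to 0.05; edgeR adjusted p = 1.00). These intervals for WT and Tg3 leave room for no change and for a decrease of up to -0.13 and -0.16 on the log2 scale.

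Comparisons between PKD2 plasmids leave out NC. Tg1 lay below WT by a log2 fold change of -0.32 (95% interval -0.42 to -0.23), below Tg3 by -0.30 (-0.39 to -0.20) and below Tg2 by -0.17 (-0.27 to -0.08). In the fit with the first principal component these were -0.28, -0.31 and -0.21. These are descriptions, because the Tg1 libraries chose the gene. In all 3 the libraries did not overlap, as held for 8.45% of genes in Tg1 against WT, 13.1% against Tg3 and 12% against Tg2. The 3 comparisons among WT, Tg2 and Tg3 share no library with the one that chose PRKAR2A. Their spread was estimated over all 15 libraries together, as it was for the choice, so they are not fully independent of it. Between Tg2 and WT the log2 fold change was -0.15 (standard error 0.04, 95% interval -0.25 to -0.06; edgeR adjusted p = 0.0452), under the fold threshold. The exact permutation test of the difference in mean log2 CPM gave p = 0.1, two-sided, the smallest that 3 libraries against 3 allow. Of all tested genes, 4.32% were lower in Tg2 than in WT at this adjusted p-value and 12.4% had no overlap in this direction. The adjusted p-value was at or under the threshold in 9 of the 23 alternatives other than glmTreat and in 4 of the 15 fits without 1 library. With only Tg2 and WT fitted, edgeR gave an adjusted p of 0.186. It was 0.63 from edgeR with the first principal component as a covariate, where the log2 fold change was -0.07. Tg3 and WT differed by -0.02 (95% interval -0.12 to 0.07; edgeR adjusted p = 0.765). Tg2 lay below Tg3 by -0.13 (95% interval -0.22 to -0.03) with an edgeR p-value of 0.0113 before and 0.822 after adjustment, and 6.05% of genes had all Tg2 libraries below all Tg3 libraries.

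**Figure D2:**
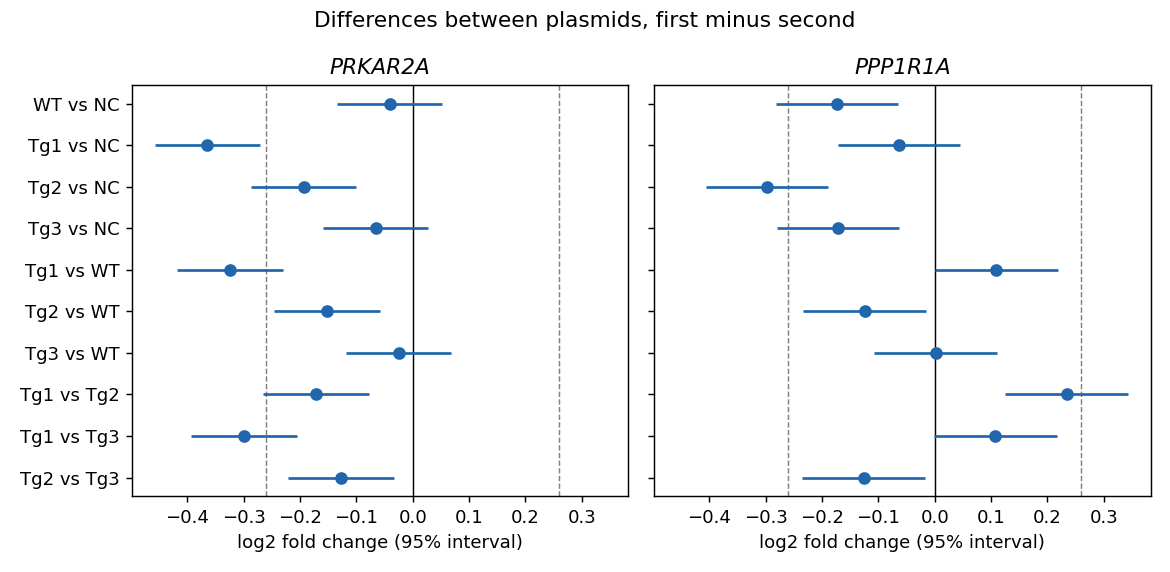
Log2 fold changes of PRKAR2A (left) and PPP1R1A (right) in the 10 comparisons of the 5 plasmids, first minus second, with 95% intervals from edgeR; dashed lines mark log2 fold changes of -0.26 and 0.26. The comparisons that chose the genes, Tg1 vs NC for PRKAR2A (-0.36) and Tg2 vs NC for PPP1R1A (-0.30), are the lowest in their panels.

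PPP1R1A had a different order of plasmids. Its level was 74.0, 67.5 and 77.0 CPM in NC replicates 1 to 3 and 60.0, 57.8 and 60.0 CPM in Tg2. The 3 Tg2 libraries lay below every other library. Of all tested genes, 18% had all 3 Tg2 libraries below NC, 12.4% below WT, 11.2% below Tg1 and 6.05% below Tg3. The level was 71.8, 68.9 and 68.5 CPM in Tg1, within the range of NC. WT libraries were at 63.6, 61.9 and 68.4 CPM and Tg3 libraries at 63.2, 65.5 and 65.4 CPM, and Tg3 lay within the range of WT. The mean ran from NC (72.9 CPM) through Tg1 (69.7), Tg3 (64.7) and WT (64.6) to Tg2 (59.3). The plasmid with the lowest PRKAR2A, Tg1, was thus the PKD2 plasmid with the highest PPP1R1A.

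The Tg2 level of PPP1R1A differed from NC by a log2 fold change of -0.30 (standard error 0.05, 95% interval -0.41 to -0.19), a change of -18.6%, given as a description because it chose the gene. In that comparison 3.7% of all tested genes were called lower. The gene met the thresholds in 12 of the 15 fits that left out 1 library, with log2 fold changes from -0.35 to -0.26. It did not without NC replicate 1, NC replicate 3 or Tg2 replicate 2. Those fits called 5, 0 and 0 of all tested genes lower. All 15 fits reuse the comparison that chose the gene and are no test of it. With the first principal component as a covariate the log2 fold change was -0.19. NC replicate 2, the lowest NC library for PPP1R1A at 67.5 CPM, was also the NC library with the highest score on that component, -0.923.

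Against NC, PPP1R1A had a log2 fold change of -0.17 in WT (95% interval -0.28 to -0.06; edgeR p-value 0.00409 before and 0.666 after adjustment). With the first principal component as a covariate it was -0.18 with an edgeR adjusted p = 0.0303. That was the lowest over the 23 alternatives other than glmTreat, which gave 0.0303 to 1. WT replicate 3, at 68.4 CPM, lay above NC replicate 2, so the groups overlapped. Tg3 also differed by -0.17 (95% interval -0.28 to -0.06; edgeR adjusted p = 0.161), with all Tg3 libraries below NC, as for 13.9% of genes. The log2 fold change in Tg1 was -0.06 (95% interval -0.17 to 0.04; edgeR adjusted p = 0.497). Neither WT nor Tg3 was called, and in both comparisons the share of genes called in either direction was 0%. These 3 comparisons share the NC libraries that were used for the choice of PPP1R1A.

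Without NC, Tg2 lay below Tg1 in PPP1R1A by 0.23 on the log2 scale (Tg1 minus Tg2, 95% interval 0.12 to 0.34), below Tg3 (Tg2 minus Tg3 -0.13, -0.24 to -0.02) and below WT (Tg2 minus WT -0.12, -0.23 to -0.02), again as descriptions. Adding the first principal component as a covariate gave 0.18, -0.09 and -0.02, and without WT replicate 3 the difference between Tg2 and WT was -0.08. All Tg1 libraries were higher than all Tg2 libraries, as in 11.2% of genes. Tg1 was higher than WT by 0.11 (95% interval 0.00074 to 0.22; edgeR adjusted p = 0.318) with no overlap, as in 8.45% of genes. It was higher than Tg3 by 0.11 (95% interval -0.00083 to 0.22; edgeR adjusted p = 0.32), and 11.8% of genes had no overlap in that direction. The exact permutation test gave its smallest possible p = 0.1, two-sided, in both comparisons. Tg3 and WT differed by 0.0015 (95% interval -0.11 to 0.11; edgeR adjusted p = 0.989).

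The 2 members were also set against each other within plasmids, to see whether a library low in one was low in the other. The deviations from the plasmid means over 15 libraries had a Pearson's r of 0.355 (permutation within plasmids, p = 0.307) and a Spearman's rho of 0.307 (permutation p = 0.368), with a Benjamini-Hochberg adjusted p of 0.368 for both. Without Tg2 replicate 1 and WT replicate 2, whose PRKAR2A deviations from the plasmid mean lay farthest from the median deviation, r was 0.316 over 13 libraries. No relation between them was detectable with this number of libraries. Within plasmids, both members fell along the first principal component over the 15 libraries, with r = -0.663 for PRKAR2A and r = -0.708 for PPP1R1A. With plasmid means kept, these were -0.472 and -0.662. The Tg1 libraries, lowest in PRKAR2A, had mid-range scores on that component (-7.14 to 5.77) and the highest on the second, with which PRKAR2A had r = -0.802 over the 15 libraries and -0.561 within plasmids. With the mitochondrial share, r was 0.401 for PRKAR2A and 0.621 for PPP1R1A, and 0.505 and 0.498 within plasmids.

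**Figure D3:**
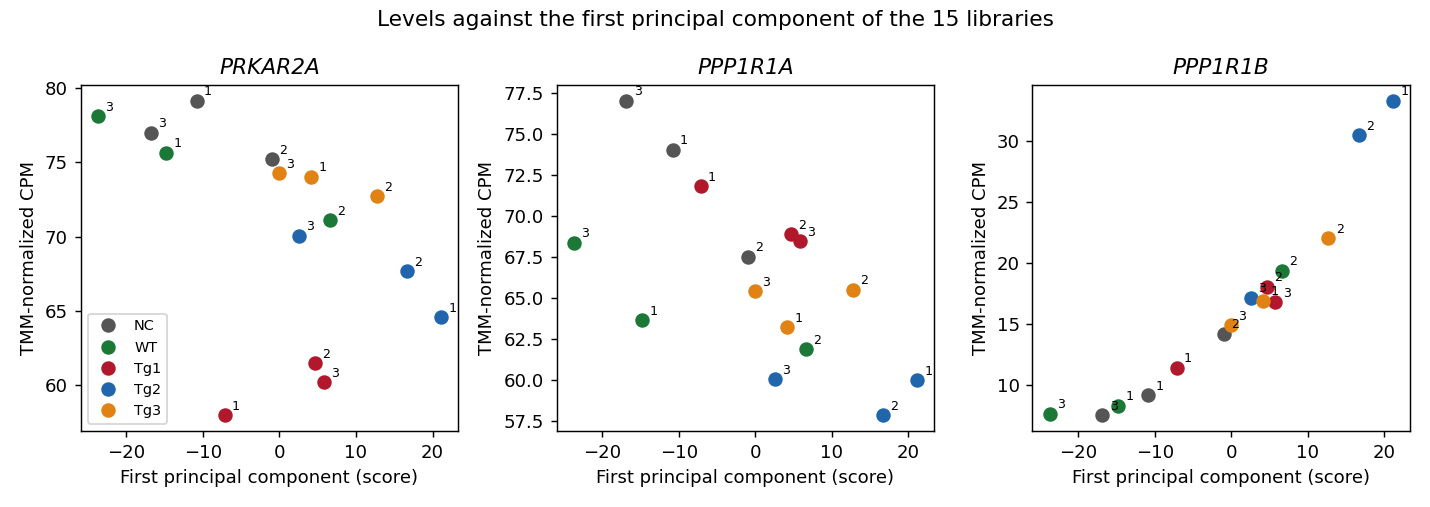
TMM-normalized CPM of PRKAR2A, PPP1R1A and PPP1R1B against the score of each of the 15 libraries on the first principal component, coloured by plasmid and numbered by replicate. The 3 Tg1 libraries lie below the others in PRKAR2A, and PPP1R1B rises with the score over all plasmids (r = 0.986).

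Of the 6 PKA subunit genes, 4 passed the filter. PRKAR2A was called in Tg1, but that comparison chose it, so the call was given by the choice. None of the other PKA subunits was called against NC. PRKAR1A, the type I alpha regulatory subunit, was between 394 and 432 CPM in all libraries, with log2 fold changes against NC of -0.02 (WT), -0.05 (Tg1), -0.07 (Tg2) and -0.07 (Tg3). The ratio of PRKAR2A counts to PRKAR1A counts in the same library, which needs no scaling, was 0.182 ± 0.0079 (SD, n = 3) in NC, 0.180 ± 0.0068 in WT, 0.167 ± 0.0089 in Tg2 and 0.183 ± 0.0063 in Tg3. In Tg1 it was 0.146 ± 0.0040, with every library (0.142 to 0.149) below those of the other plasmids. This ratio holds the PRKAR2A counts that chose the gene and is a description. The ratio of the 2 counts is not a ratio of transcripts, since lengths were not used here.

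PRKACA, the alpha catalytic subunit, was at 74.0, 75.7 and 78.8 CPM in NC and at 64.8, 63.7 and 66.3 CPM in Tg2. The Tg2 libraries lay below all NC libraries, as did 18% of all tested genes. PRKACA was at 62.6 to 71.8 CPM in WT. In Tg1 (70.0 to 73.5 CPM) it lay below all NC libraries, as did 14.8% of genes. Its log2 fold change in Tg2 was -0.23 (standard error 0.05, 95% interval -0.34 to -0.12; edgeR adjusted p = 0.021), under the fold threshold. It was -0.18 in WT (edgeR adjusted p = 0.693), -0.09 in Tg1 (edgeR adjusted p = 0.335) and -0.10 in Tg3 (edgeR adjusted p = 0.319). In Tg2, the PRKAR2A to PRKACA count ratio was 1.04 ± 0.036 (SD, n = 3), against 1.01 ± 0.049 in NC, and the ranges overlapped. In Tg1 it was 0.838 ± 0.046, below all NC libraries, a description since it holds the PRKAR2A counts that chose the gene. PRKACB, the beta catalytic subunit, was between 6.21 and 9.28 CPM, and PKIG, a peptide that inhibits the catalytic subunit, was between 11.5 and 15.6 CPM. Neither was called in any comparison with NC.

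**Figure D4:**
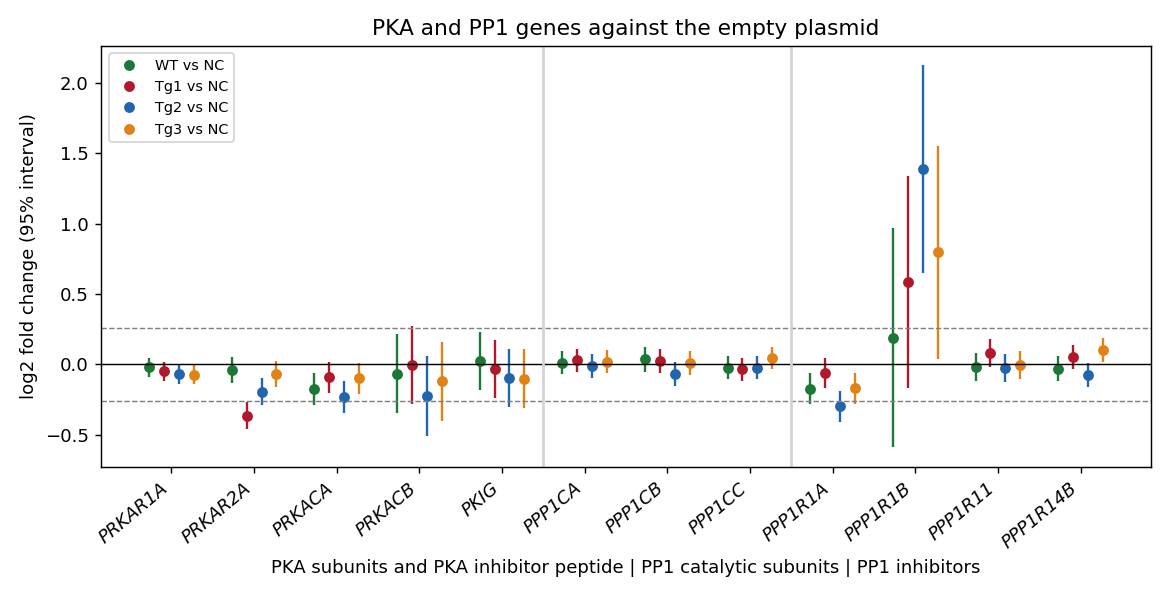
Log2 fold changes against NC with 95% intervals from edgeR for the PKA subunits and PKA inhibitor peptide, the PP1 catalytic subunits and the PP1 inhibitors that passed the filter, in the 4 PKD2 plasmids; dashed lines mark log2 fold changes of -0.26 and 0.26. PRKAR2A in Tg1 (-0.36), PPP1R1A in Tg2 (-0.30) and PPP1R1B in Tg2 (1.39) lie past the dashed lines and were called. For PRKAR2A and PPP1R1A these are the comparisons that chose the genes.

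PPP1CA, PPP1CB and PPP1CC, the 3 catalytic subunits of PP1 that inhibitor-1 acts on, had log2 fold changes against NC between -0.07 and 0.05 in the 4 PKD2 plasmids, and none was called. The count ratio of PPP1R1A to PPP1CA was 0.542 ± 0.039 (SD, n = 3) in NC, 0.477 ± 0.022 for WT, 0.509 ± 0.021 for Tg1, 0.444 ± 0.0089 for Tg2 and 0.475 ± 0.0098 for Tg3. Like the level itself, the ratio was lowest in Tg2 and highest in NC. It holds the PPP1R1A counts that chose the gene and is a description.

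Of 9 PP1 inhibitor genes, 4 passed the filter. PPP1R1B, which encodes DARPP-32, a relative of inhibitor-1 that PKA likewise turns into a PP1 inhibitor, went the opposite way in Tg2. It was at 9.12, 14.2 and 7.48 CPM in NC and at 33.3, 30.5 and 17.1 CPM in Tg2. The 3 Tg2 libraries lay above all NC libraries, as did 17.5% of all tested genes. The log2 fold change was 1.39 (standard error 0.34, 95% interval 0.65 to 2.13; edgeR adjusted p = 0.0254). The count ratio of PPP1R1A to PPP1R1B was 7.72 ± 2.79 (SD, n = 3) in NC, 6.62 ± 3.03 in WT, 4.73 ± 1.37 in Tg1, 3.70 ± 0.713 in Tg3 and 2.40 ± 0.956 in Tg2. All Tg2 libraries (1.80 to 3.50) lay below those of NC (4.76 to 10.3). This ratio also holds the PPP1R1A counts that chose the gene and is a description. PPP1R1B varied widely within plasmids, with 8.29, 19.4 and 7.62 CPM in WT replicates 1 to 3, and it followed the first principal component with r = 0.986 over 15 libraries (0.982 within plasmids). With that component as a covariate, its log2 fold change in Tg2 was 0.23 (standard error 0.11), and it was called in 11 of the 15 fits without 1 library. PPP1R11 and PPP1R14B, the other PP1 inhibitors tested, had log2 fold changes between -0.08 and 0.10 and were not called.

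The wider list of cAMP, PKA and PP1 genes held 126 genes, of which 111 were found in the table by name and 80 passed the filter, both members included. In WT and in Tg3, 0 of the 80 were called, as were 0% of all genes, while 9 and 16 of them had an unadjusted edgeR p-value under 0.05 (524 and 2089 of all genes). DESeq2 in place of edgeR also called 0 of the 80 in both. In Tg1, 1 was called higher and 1 lower, where 0.182% of all genes were called higher and 1.01% lower. The gene called lower was PRKAR2A, which this comparison chose. The median log2 fold change of the 80 genes was 0.021 for WT, 0.0023 for Tg1, -0.017 for Tg2 and 0.014 for Tg3, against -0.0036, 0.0034, -0.0066 and -0.0018 over all tested genes.

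The Tg1 gene called higher was PPP1R15A, or GADD34, a stress-induced subunit that brings PP1 to the translation factor eIF2 alpha. It was at 131, 147 and 142 CPM in NC, 153, 195 and 195 CPM in Tg1, and 176, 185 and 168 CPM in Tg2. Both plasmids lay above NC without overlap, as did 11.9% of genes in Tg1 and 17.5% in Tg2. The log2 fold change was 0.37 in Tg1 (standard error 0.08; edgeR adjusted p = 0.0291) and 0.33 in Tg2 (standard error 0.08; edgeR adjusted p = 0.0219). Each of these calls was made in 11 of the 15 fits without 1 library, and with the first principal component as a covariate the log2 fold changes were 0.31 and 0.20. In WT and Tg3 the log2 fold changes were 0.19 and 0.12, and neither was called.

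In Tg2, 7 of the 80 genes were called higher and 4 lower, PPP1R1A, which this comparison chose, being one of the 4. Over all tested genes 4.73% were called higher and 3.7% lower. The count of 11 rested on single libraries. It was 0 without NC replicate 1, NC replicate 3 or Tg2 replicate 2, and 1 without Tg2 replicate 1. It was 6 without Tg1 replicate 2, Tg1 replicate 3 or Tg3 replicate 1, and 7 without WT replicate 1. Calls over all tested genes, 546 higher and 428 lower at first, fell as well. They were 19 and 5 without NC replicate 1, and 0 and 0 without NC replicate 3 or Tg2 replicate 2. Without Tg2 replicate 1 they were 33 and 15. In the 3 fits with 0, between 18 and 22 of the 80 genes (22.5 to 27.5%) had an unadjusted edgeR p-value under 0.05, as had 23.8 to 27.4% of all tested genes. A block for replicate number raised the count of listed genes called to 15. With the first principal component as a covariate it was 4, all of them cAMP-induced genes, and of the 11 genes only DUSP1 remained.

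Among genes that make or remove cAMP, ADCY4, an adenylyl cyclase, was at 8.46, 10.4 and 8.21 CPM in NC and 17.1, 15.7 and 11.6 CPM in Tg2, a difference of 0.71 on the log2 scale (standard error 0.21; edgeR adjusted p = 0.0421). PDE4A, a phosphodiesterase specific for cAMP, rose from 57.1, 75.2 and 54.1 CPM to 109, 96.1 and 78.7 CPM, by 0.61 (standard error 0.19; edgeR adjusted p = 0.0475). PDE1A, a calcium-stimulated phosphodiesterase, fell from 33.6, 28.9 and 34.1 CPM to 24.1, 23.8 and 26.7 CPM, by a log2 fold change of -0.37 (standard error 0.09; edgeR adjusted p = 0.0231). None of the 3 genes overlapped between Tg2 and NC, as held for 17.5% of all tested genes in the higher direction and 18% in the lower. All 3 followed the first principal component within plasmids, with r = 0.946 for ADCY4, 0.978 for PDE4A and -0.872 for PDE1A. With that component as a covariate, their log2 fold changes were 0.032, -0.0074 and -0.13. The calls were made in 8 (ADCY4), 5 (PDE4A) and 11 (PDE1A) of the 15 fits without 1 library.

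Of the 11 A-kinase anchoring proteins tested, AKAP1, which places PKA at mitochondria, was called higher in Tg2 (log2 fold change 0.39, standard error 0.09; edgeR adjusted p = 0.0217). AKAP11 was called lower (-0.30, standard error 0.09; edgeR adjusted p = 0.0475), although its Tg2 libraries at 65.7, 62.2 and 73.3 CPM overlapped with NC replicate 2 at 73.3 CPM. AKAP9, a centrosomal and Golgi anchor, differed by -0.19 in Tg1 (edgeR adjusted p = 0.0436), under the fold threshold. EZR, also in this group, passed the p-value threshold but not the fold threshold in Tg2, with means of 892 CPM in NC and 1008 CPM in Tg2. Among PP1 targeting subunits, PPP1R18 was higher in Tg2 (0.35; edgeR adjusted p = 0.0426) and PPP1R12B, a myosin phosphatase subunit, lower (-0.26; edgeR adjusted p = 0.0498). In the fit with the first principal component, the log2 fold changes in Tg2 were 0.12 for AKAP1, -0.026 for AKAP11, 0.040 for PPP1R18 and -0.085 for PPP1R12B. Of the 15 fits without 1 library, 11 called AKAP1, 5 called AKAP11, 6 called PPP1R18 and 5 called PPP1R12B.

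DUSP1, a phosphatase of MAP kinases that cAMP can induce, was the only one of 8 cAMP-induced genes called in Tg2. It was at 404, 404 and 448 CPM in NC and 484, 610 and 576 CPM in Tg2, a difference of 0.41 on the log2 scale (standard error 0.11; edgeR adjusted p = 0.0321). The other plasmids gave 0.41 (WT), 0.38 (Tg1) and 0.22 (Tg3), and none of these was called. In Tg1 it was also called by DESeq2 and in the fit of Tg1 and NC alone, and without WT replicate 2 it was called in WT and Tg1. The call in Tg2 was made in 10 of the 15 fits without 1 library. Its r with the first principal component was -0.0052 over the 15 libraries and -0.539 within plasmids. With that component as a covariate, DUSP1 was called in every plasmid, with log2 fold changes of 0.40 (WT), 0.47 (Tg1), 0.61 (Tg2) and 0.35 (Tg3). The same fit called the immediate early genes FOS (0.58, standard error 0.13) and NR4A1 (0.94, standard error 0.20) and the clock gene PER1 (0.29, standard error 0.06) in Tg2. It also called FOS and NR4A1 in Tg1, and NR4A1 in WT. Without that covariate FOS, NR4A1 and PER1 were not called against NC. The mean of FOS was 549 CPM in NC, 676 in Tg1 and 600 in Tg2. For NR4A1 it was 140 CPM in NC, 259 in WT, 176 in Tg1 and 145 in Tg2. PER1 was lower in Tg2 (51.0 CPM) than in NC (58.5 CPM). For each of these genes the Tg2 libraries overlapped with NC. The 10 tested CREB family genes, their coactivators and the SIK kinases that restrain the CRTC coactivators held no gene that was called against NC. CRTC2 passed the p-value threshold but not the fold threshold in Tg2, with means of 69.8 CPM in NC and 75.9 CPM in Tg2. Of 5 receptors tested, none was called, and the vasopressin V2 receptor gene AVPR2 had means of 27.4 to 29.3 CPM in the 5 plasmids.

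**Figure D5:**
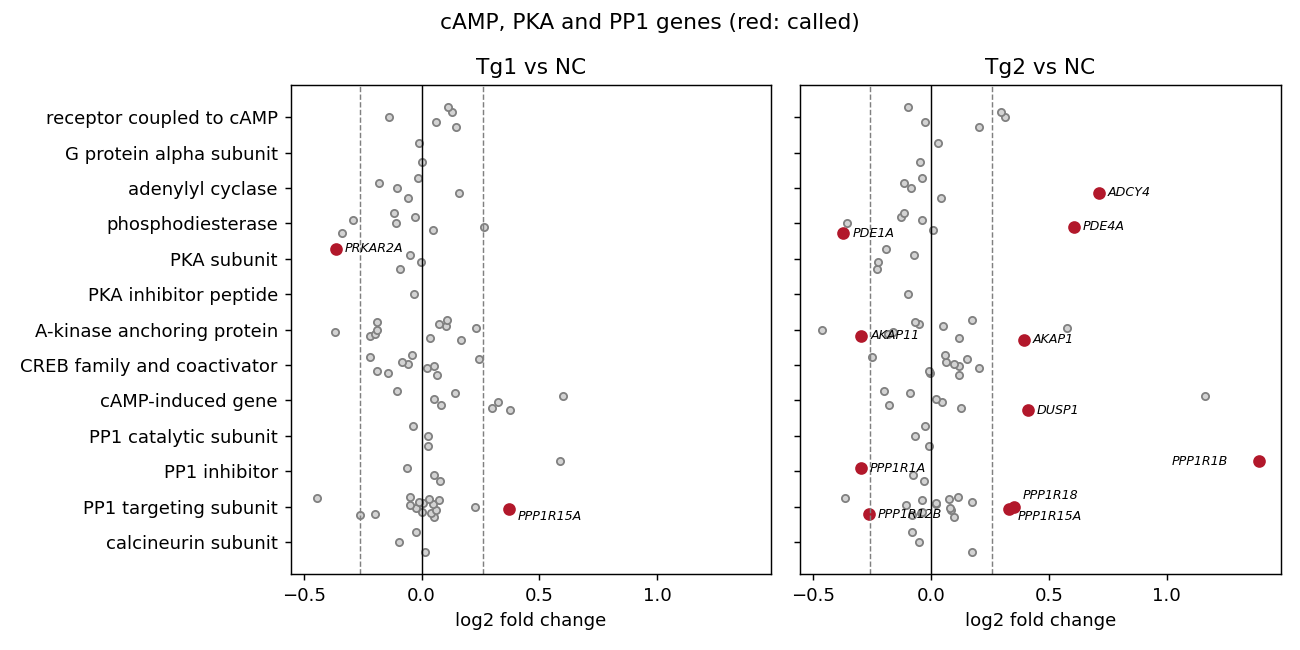
Log2 fold change against NC of the 80 tested cAMP, PKA and PP1 genes in Tg1 (left) and Tg2 (right), grouped by role; red points are genes called by edgeR and dashed lines mark log2 fold changes of -0.26 and 0.26. In Tg1, 1 gene was called higher and PRKAR2A lower, and in Tg2, 7 were called higher and 4 lower.

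Between Tg2 and WT, 5 genes of the list were called, 3 higher and 2 lower, where 3.31% and 2.61% of all genes were called. Higher in Tg2 were PPP1R1B (means of 27.0 CPM in Tg2 and 11.8 CPM in WT), ADCY4 (log2 fold change 0.76) and AKAP1 (0.40). Lower were PCK1, the gluconeogenic enzyme phosphoenolpyruvate carboxykinase and a classical cAMP-induced gene of the proximal tubule (-0.39, standard error 0.09; edgeR adjusted p = 0.03), and PDE4C (-0.46, standard error 0.13; edgeR adjusted p = 0.047). PPP1R1B and ADCY4 libraries overlapped between Tg2 and WT, through WT replicate 2. Once the first principal component was a covariate, the log2 fold changes were 0.081 for PPP1R1B, 0.080 for ADCY4, 0.12 for AKAP1, -0.21 for PCK1 and -0.083 for PDE4C. The calls were made in 6, 5, 11, 11 and 6 of the 15 fits without 1 library, in the same order. PPP1R1A was not among the 5.

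The 5 named genes whose log2 CPM was most like that of PRKAR2A over the 15 libraries were AFF4 (Pearson's r 0.942), PTPRG (0.936), LRP6 (0.935), DIP2B (0.933) and MAGI3 (0.927). AFF4 is a scaffold of the super elongation complex, LRP6 a Wnt co-receptor and PTPRG a receptor tyrosine phosphatase. Their log2 fold changes in Tg1 lay between -0.40 and -0.25, and in Tg2 between -0.18 and -0.11. Within plasmids, r was 0.786 for AFF4 and 0.435 for LRP6. For PPP1R1A, the 5 were PCDHAC2 (0.926), REEP2 (0.900), SYT7 (0.896), IGFBP7 (0.895) and IGFBP2 (0.881), with log2 fold changes in Tg2 from -0.43 to -0.13. PCDHAC2 shares exons with other protocadherin alpha genes, so its counts are uncertain. IGFBP2 and IGFBP7 bind insulin-like growth factors, and SYT7 is a calcium sensor of vesicle fusion. The libraries share depth scaling and the axis described above, and these r values are descriptions.

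Genes beside the members on the chromosome were taken from the order of RefSeq's pig annotation, and none of the 3 tested was called. IP6K2 and SLC25A20, which flank PRKAR2A, had log2 fold changes of 0.10 and 0.01 in Tg1 (edgeR adjusted p = 0.419 and 0.952). PDE1B, a phosphodiesterase gene beside PPP1R1A, had one of 0.01 in Tg2 (edgeR adjusted p = 0.961). The gene on the other side of PPP1R1A was not matched to the count table and was not analysed here. RefSeq places a pseudogene within PRKAR2A, and reads shared with it could not be told apart in these counts.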

How the data were processed

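Per the authors' methods and the submitters' processing notes, Salmon was run on the reads with Ensembl's pig transcripts as the reference. The values the authors deposited are raw counts, 1 whole number per Ensembl gene and library. How transcript counts were summed to genes is not given in the sources used here. Groups and replicate numbers were taken from the labels, and 0 columns belonged to other samples. Counts of the 15 libraries were normalized by TMM and fitted together with edgeR 4.0.16 in R 4.3.3 (glmQLFit, glmQLFTest, 1 mean per plasmid) over the 11553 genes whose mean CPM was at least 2, with Benjamini-Hochberg adjustment. A call needed an adjusted p at or below 0.05 and a log2 fold change of at least 0.26 in size. The authors used DESeq2, which was an alternative here (version 1.42.0). Single genes were also compared with exact permutation tests in SciPy 1.17.1. The fit was tested on simulated counts. Replicates of a plasmid differed by more than counting noise, at a chi-square per degree of freedom of 2.73 (Tg3 replicates 1 and 3) to 40.3 (WT replicates 2 and 3), so all 15 libraries were kept as separate samples.

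The members and gene lists were chosen with earlier results of these data known. The genes named are the members and all PKA subunits, PKA inhibitor peptides, PP1 catalytic subunits and PP1 inhibitors that passed the filter. Also named are every other listed gene called against NC and the 5 genes most like each member by Pearson's r. AKAP9, EZR, CRTC2, AVPR2, FOS, NR4A1, PER1, PCK1 and PDE4C were added after their values were seen. So were the genes next to the members on the chromosome and the genes next to the members in rank. The pig PKD genes and the transgene were not analysed here. The alternatives were DESeq2, edgeR with DESeq2 size factors, no CPM filter, a filter at a mean of 10 CPM, only the 2 groups compared, no fold threshold, glmTreat, the replicate number as a block, leaving out each library and, added after the data were seen, the first principal component as a covariate. Intervals are 95% intervals of the fit.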

Additional observations from a re-analysis of the deposited data

How the results depend on the processing

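Every comparison of PRKAR2A and PPP1R1A with NC kept its direction under the alternatives run. PRKAR2A in Tg2 (-0.19) was called without the fold threshold. PPP1R1A in Tg2 moved to -0.19 with the first principal component as a covariate, an alternative chosen after seeing the data. Tg2 and NC did not overlap on that component, so this fit cannot tell plasmid from component. The list's count of calls in Tg1, 2 at first, was 6 with DESeq2, 4 with the replicate block, 0 with glmTreat, 6 with the component as a covariate and 1 to 5 when 1 library was left out. In Tg2, 11 at first, it was 15 with the replicate block, 15 without the fold threshold, 0 with glmTreat, 4 with the component and 0 to 14 when 1 library was left out. In WT it was 0 to 1 without 1 library and 2 with the component, and in Tg3 it was 1 with the component. glmTreat, which tests against the fold threshold, called 0 of all genes in each comparison with NC, with 46 (WT), 170 (Tg1), 841 (Tg2) and 132 (Tg3) at an unadjusted p under 0.05. Over all genes, DESeq2 called 59 higher and 184 lower in Tg1, where edgeR called 21 and 117, and 9 higher and 1 lower in WT and 27 and 18 in Tg3, where edgeR called 0. The replicate block called 57 higher and 189 lower in Tg1, 962 and 662 in Tg2 and 5 and 6 in Tg3. Same-numbered libraries of a plasmid and NC correlated in their deviations from -0.267 to 0.619. The values were mixed, with replicate 2 at 0.274 to 0.619 and some pairs of replicates 1 and 3 under 0, and the pairing was not used in the reported fit because not every pair correlated. Among comparisons between plasmids, the adjusted p of PRKAR2A in Tg1 was above the threshold in 11 of the alternatives against WT and in 5 against Tg3, glmTreat included in both, while the log2 fold change stayed between -0.36 and -0.28 and between -0.32 and -0.28. Counting error of 2.24 to 2.84% per library limits differences of a few percent in either member.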
